A study of Homo sapiens and Mus musculus with 18 samples.

Results

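Lymphocytes are the white blood cells of adaptive immunity together with natural killer (NK) cells, and 33 genes that mark them or carry out their functions were followed in 8 mouse KPCA tumours. KPCA is a mouse cell line derived from the epithelium of the fallopian tube and used as a model of high-grade serous ovarian cancer. The genes were taken by symbol, and 33 of 33 were found, each on 1 identifier, among 54532 genes of the deposited tumour table. They comprise 14 T cell genes, 3 inhibitory receptors, 5 genes of regulatory T cells, 10 cytotoxic and NK genes, and Ms4a1 for B cells. The tumours were grown in wild-type C57BL6J mice (WT, 2 tumours), in mice heterozygous for Amhr2 (Het, 2 tumours) and in Amhr2 knock-out mice (KO, 4 tumours). Amhr2 encodes the receptor that binds anti-Müllerian hormone, a TGF-beta family ligand. The tumours are called by group and title number, WT438 and WT568, Het563 and Het569, and KO437, KO445, KO479 and KO543, and values are given in that order throughout. The groups rest on the titles, because the tag for genotype reads WT in each of the 8. Both WT columns also carry a suffix of unstated meaning, and its effect and that of the WT genotype cannot be told apart. The allele, sex and age of the mice, the site of the tumours and any treatment were not given in the sources used here, nor was it said whether the tumour cells themselves carry Amhr2. The question that the design poses for these genes is whether lymphocyte RNA in the tumour differed with the Amhr2 genotype of the mouse.

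A T cell recognises antigen through its receptor, whose antigen-binding chains sit in the membrane with the CD3 chains. The CD3 chains carry the tyrosine motifs that Lck phosphorylates and to which Zap70 then binds. Helper and killer T cells differ in their coreceptor, CD4 or CD8, while regulatory T cells restrain the others and depend on the transcription factor Foxp3. Killer T cells and NK cells kill with perforin and granzymes. The presence of T cells inside the tumour is a much studied feature of ovarian carcinoma.

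Total counts ran from 17746902 in WT568 to 28070669 in WT438. The levels below are CPM, counts scaled by library size with TMM factors. WT438 stood apart from the rest: with the most counts it had the fewest genes detected, 18248 against 20642 to 23237 elsewhere, and 351 genes at exactly 1 count against 1265 to 2666 in the other 7 tumours. The share of counts in mitochondrially encoded genes was 4.87% for WT438 and 4.33% for KO543, and lay between 1.22% and 2.32% for the rest. KO543 had the lowest sum over the 12 macrophage and monocyte markers (such as Lyz2, Csf1r and Adgre1), 1847 CPM against 3583 to 4312 CPM elsewhere, and an Epcam level of 119 CPM against at most 1.75 CPM elsewhere. Epcam encodes an epithelial adhesion protein. Amhr2 itself had 0 and 5 counts in the WT tumours, 5 and 11 in the Het tumours and 3 to 11 in the KO tumours. The counts overlapped between groups and were low everywhere, so they did not check the genotype labels. Which part of the gene was deleted was not stated either.

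RNA of most of the 33 genes was scarce in all 8 tumours. Antibody genes lie outside the 33 and reached higher levels, such as Ighm for the IgM heavy chain, at 80.6 CPM in Het563. Per length, in the FPKM values (fragments per kilobase and depth) that the authors deposited, 30 of the 33 genes had a median level under 1 over the 8 tumours, and the median of these medians was 0.222 FPKM. Ptprc, the leukocyte antigen CD45, stood at a median of 2.43 FPKM. The macrophage lysozyme gene Lyz2 stood at 977 FPKM, and Krt8, a keratin gene of simple epithelia and mesothelium, at 824 FPKM. Of the epithelial markers Krt8 was thus abundant, whereas Epcam was near 0 in all but KO543. Msln, a mesothelial marker also carried by ovarian carcinomas, ran from 197 to 725 CPM, and epithelial and mesothelial sources were not told apart. The T cell marker Cd3e was present in all 8 tumours, at 0.0377 to 0.591 FPKM. Havcr2 was highest among the 33 at a median of 11.5 FPKM, followed by Lag3 at 2.66 FPKM and Tigit at 1.24 FPKM, and Ms4a1 was lowest at 0.00838 FPKM. Fewer lymphocytes and less RNA per lymphocyte cannot be told apart in such bulk samples.

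Summed over the 33 genes, the tumours held 57.6 and 96.9 CPM (WT), 62.1 and 72.2 CPM (Het), and 69.8, 73.5, 56 and 43.1 CPM (KO). WT568 had the highest sum and KO543 the lowest, and the KO range overlapped both other groups. Havcr2 alone made up 32.2% to 55% of these sums. WT568 was the highest of the 8 tumours for 19 of the 33 genes and lay above all 4 KO tumours for 25. KO543 alone was the lowest for 12 genes. The other WT tumour, WT438, did not share the high values of WT568: it was below WT568 for 27 genes and at 0 for 7, namely Cd8a, Foxp3, Prf1, Ifng, Ncr1, Tbx21 and Ms4a1. A count of 0 in WT438 allows up to 3 counts, or 0.119 CPM, and such limits cover counting error only. For 8 genes all 4 KO tumours lay between the WT tumours: Cd8a, Foxp3, Icos, Gzmb, Prf1, Ifng, Ncr1 and Tbx21. The spread between tumours was mostly larger than counting alone gives, with a median coefficient of variation of 68.4% against a median counting error of 26.4%. For 4 genes, Cd28, Icos, Ncr1 and Ms4a1, it was within 1.5 times the counting error.

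**Figure D1:**
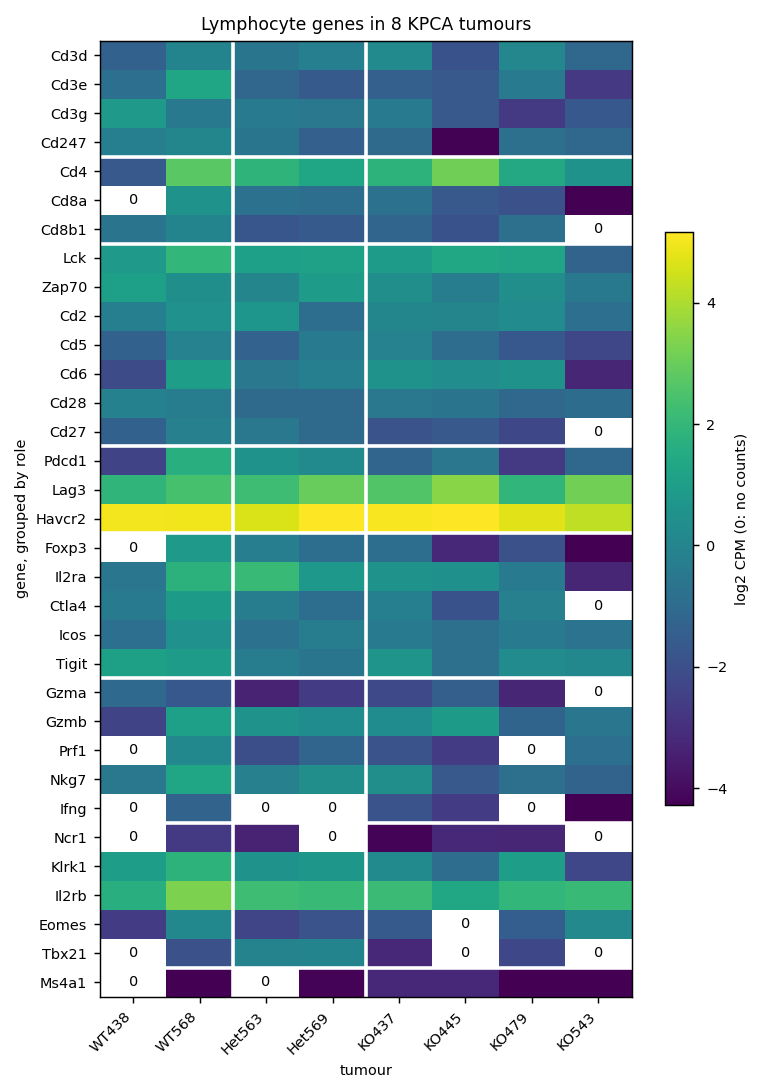
Heat map of the 33 lymphocyte genes (rows, grouped by role) in the 8 tumours (columns), coloured by log2 CPM, with 0 written where a tumour had no counts. WT568 is the brightest column for 19 genes, and WT438 holds 7 zeros and KO543 6.

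The fitted comparison of all KO tumours with all WT and Het tumours, 4 against 4, found no gene in the table called at an adjusted p under 0.05 with the quasi-likelihood test of edgeR. It called 0 of 15205 genes (0%) and 0 of the 22 lymphocyte genes with enough counts to be tested. An unadjusted p under 0.05 was reached by 630 genes (4.14%), and by 2 of the 22 lymphocyte genes, Cd3g and Pdcd1 (9.09%). DESeq2 called 1 gene and limma 0, and neither called a lymphocyte gene. Of the 22 tested, 18 had a log2 fold change below 0 and 4 above, with a median of -0.47, against 51.5% below 0 and a median of -0.01 over all genes tested. The other 11 (Cd3e, Cd8b1, Cd5, Cd27, Gzma, Prf1, Ifng, Ncr1, Eomes, Tbx21 and Ms4a1) had too few counts for this fit. By group means, which need no filter, KO was below WT and Het for 25 of the 33 genes and above for 8. Without WT568 the median of the tested genes moved to -0.14, with 17 of 23 below 0. Without both WT438 and KO543, which stand apart, it was -0.44. The 95% intervals were wide, with a median half-width of 1.28 on the log2 scale. Nothing in the labels says more of how the tumours were replicated, so p-values reflect the spread between these 8 tumours alone.

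**Figure D2:**
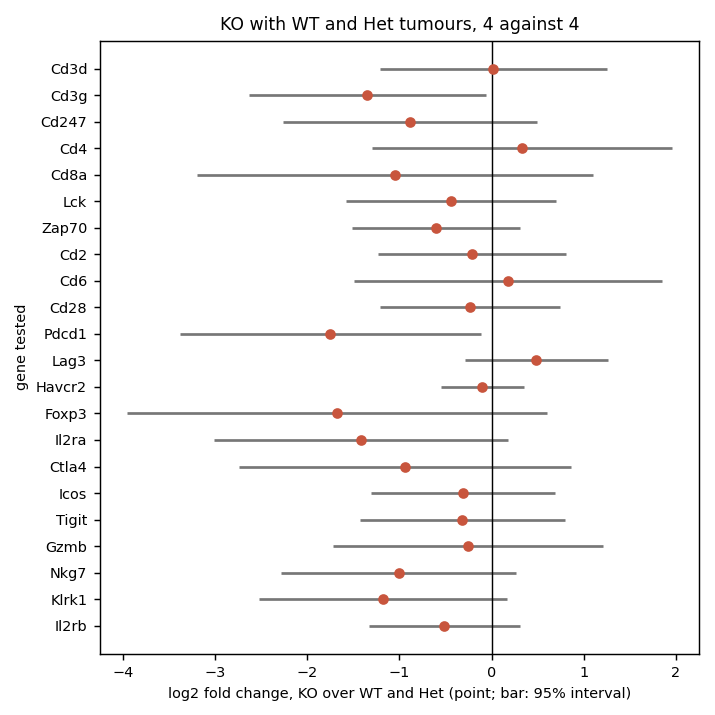
Log2 fold change of KO over WT and Het tumours (x axis) for the 22 lymphocyte genes tested (y axis); points are estimates of edgeR and bars 95% intervals. The intervals of Cd3g and Pdcd1 end below 0 before adjustment, and all the others include 0.

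The 4 genes of the T cell receptor complex lie partly side by side: the deposited table, which names no genome build, places Cd3g at chromosome 9, 44969572 to 44980431, Cd3d at 44981786 to 44987339 and Cd3e at 44998740 to 45009627. Cd3e, which encodes the epsilon chain that pairs with both other CD3 chains, measured 0.556 and 2.45 CPM in the WT tumours, 0.45 and 0.328 CPM in the Het tumours, and 0.382, 0.318, 0.736 and 0.154 CPM in the KO tumours. WT568 stood alone above the rest, and the remaining WT and Het tumours fell inside the KO range of 0.154 to 0.736 CPM. Cd3e was tested only in the fits by 3 groups, where KO against WT gave a log2 fold change of -1.89 ± 0.78 (SE), 95% interval -3.65 to -0.14 and adjusted p = 0.95. It was -0.48 without WT568 and -2.60 without WT438, fits that each leave a lone WT tumour. Cd3g, the gamma chain, measured 1.75 and 0.73 CPM in the WT tumours, 0.749 and 0.71 CPM in the Het tumours, and 0.764, 0.318, 0.158 and 0.309 CPM in the KO tumours. Here WT438 was highest and WT568 was level with the Het tumours and KO437, so the Cd3 neighbours did not peak in the same WT tumour. KO against WT and Het gave a log2 fold change of -1.35 ± 0.58 (SE), 95% interval -2.63 to -0.06 and adjusted p = 0.999. It was -0.83 without both WT438 and KO543. Cd3d, the delta chain, ranged from 0.265 CPM in KO445 to 1.15 CPM in KO437, with a KO mean of 0.731 ± 0.434 CPM (SD, n = 4) and a WT and Het mean of 0.728 ± 0.262 CPM (SD, n = 4). Cd247, the zeta chain that carries most of the tyrosine motifs of the receptor, ranged from 0.0529 CPM in KO445, a single count, to 1.04 CPM in WT568. Cd3e and Cd247 overlap other genes in the table, so their counts are uncertain where reads could belong to either.

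Of the coreceptors, Cd4 was the most abundant per length, at a median of 0.767 FPKM. It encodes the coreceptor of helper and regulatory T cells and in the mouse is also found on some dendritic cells, and it measured 0.318 and 6.73 CPM in the WT tumours, 3.65 and 2.46 CPM in the Het tumours, and 3.54, 8.73, 2.68 and 1.49 CPM in the KO tumours. KO445 and WT568 were highest and WT438 lowest, 21.2 times below WT568, so the WT tumours enclosed 3 of the 4 KO values. Cd8a, the alpha chain of the coreceptor of killer T cells, measured 0 and 1.46 CPM in the WT tumours, 0.599 and 0.546 CPM in the Het tumours, and 0.6, 0.318, 0.263 and 0.0514 CPM in the KO tumours. All KO tumours lay between WT438 and WT568. Cd8b1, the beta chain, whose gene lies near Cd8a on chromosome 6, measured 0.635 and 0.991 CPM in the WT tumours, 0.3 and 0.328 CPM in the Het tumours, and 0.436, 0.265, 0.579 and 0 CPM in the KO tumours. The groups overlapped for both chains, and KO543 was at or near 0 in each. KO against WT and Het gave a log2 fold change of 0.33 ± 0.74 (SE), 95% interval -1.30 to 1.96 and adjusted p = 0.999 for Cd4, whose sign turned without KO445 (-0.35) or without WT438 (-0.07), and which was 0.94 without WT568. For Cd8a it gave a log2 fold change of -1.05 ± 0.97 (SE), 95% interval -3.19 to 1.10 and adjusted p = 0.999. It was -0.28 without WT568, -0.70 without KO543 and -1.59 without KO437. KO445, the tumour with the most Cd4, also had the highest sum of the 7 dendritic cell markers, 69.8 CPM against 23 to 52.6 CPM in the others. Itgax alone gave 62.2 CPM of that sum. Flt3, at 0.582 CPM, was lower in KO445 than in any other tumour, and Xcr1 was at 0.159 CPM there. Of the 6 dendritic cell markers tested, 3 had log2 fold changes below 0 and 3 above, and 0 was called. Their part in the Cd4 level was not tested.

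Among 7 signalling and costimulation genes, KO means were lower for 6 and higher for Cd6. Lck, the kinase that starts receptor signalling, measured 1.75 and 3.91 CPM in the WT tumours, 2.05 and 2.18 CPM in the Het tumours, and 1.91, 2.59, 2.37 and 0.412 CPM in the KO tumours. WT568 was again highest and KO543 lowest, while the other 6 tumours sat close together, from 1.75 to 2.59 CPM. KO against WT and Het gave a log2 fold change of -0.44 ± 0.52 (SE), 95% interval -1.58 to 0.70 and adjusted p = 0.999. It was -0.13 without WT568 and -0.11 without KO543. Zap70, the kinase recruited to the phosphorylated receptor, ranged from 0.72 CPM in KO543 to 2.06 CPM in WT438. Cd27, a costimulatory receptor of the tumour necrosis factor family, measured 0.397 and 0.886 CPM in the WT tumours, 0.699 and 0.491 CPM in the Het tumours, and 0.273, 0.318, 0.21 and 0 CPM in the KO tumours. All 4 KO tumours were below all 4 WT and Het tumours, which held for 1 of the 33 genes (3.03%) against 205 of 28942 genes with any count (0.708%). No lymphocyte gene showed the opposite order, which 322 genes (1.11%) did. Cd27 overlaps Vamp1 in the table, and its lowest WT or Het value of 0.397 CPM and highest KO value of 0.318 CPM lay close together. Cd2, an adhesion receptor, ranged from 0.546 to 1.6 CPM, and Cd28, the main costimulatory receptor of naive T cells, from 0.473 to 0.913 CPM. Cd5 and its neighbour Cd6, scavenger receptor family proteins that tune receptor signalling, ranged from 0.206 to 0.939 CPM and from 0.103 to 2.03 CPM, each lowest in KO543 and highest in WT568.

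The 3 inhibitory receptors behaved differently from one another. Havcr2, which encodes TIM-3 and is carried by macrophages and dendritic cells as well as exhausted T cells, measured 31.7 and 31.2 CPM in the WT tumours, 24.6 and 35.8 CPM in the Het tumours, and 33.5, 35.3, 26.9 and 19 CPM in the KO tumours. KO543 was lowest for Havcr2 and also for the macrophage and monocyte sum, which ran from 3920 to 4210 CPM in WT, from 3858 to 4007 CPM in Het and from 1847 to 4312 CPM in KO. Of the 12 macrophage markers 10 had a log2 fold change below 0 and 0 was called, and their part in the Havcr2 level was not tested. The Havcr2 fit gave a log2 fold change of -0.10 ± 0.20 (SE), 95% interval -0.55 to 0.35 and adjusted p = 0.999, and the sign turned without KO543 (0.05). Lag3, a CD4-like receptor that binds MHC class II, measured 3.77 and 5.27 CPM in the WT tumours, 4.65 and 7.81 CPM in the Het tumours, and 6.11, 11.1, 3.84 and 8.95 CPM in the KO tumours. KO445 and KO543 were highest, and the groups overlapped, with a log2 fold change of 0.48 ± 0.35 (SE), 95% interval -0.29 to 1.26 and adjusted p = 0.999. It was 0.23 without KO445. Pdcd1, which encodes PD-1, measured 0.198 and 3.18 CPM in the WT tumours, 1.45 and 1.15 CPM in the Het tumours, and 0.436, 0.688, 0.158 and 0.463 CPM in the KO tumours. WT568 and both Het tumours exceeded every KO tumour, but WT438 fell among the KO tumours, 16 times below WT568. Pdcd1 had a KO mean of 0.436 ± 0.217 CPM (SD, n = 4) and a WT and Het mean of 1.49 ± 1.24 CPM (SD, n = 4). The fit gave a log2 fold change of -1.75 ± 0.74 (SE), 95% interval -3.38 to -0.12 and adjusted p = 0.999. It was -1.07 without WT568, and -0.62 with title numbers under or over 500 as a covariate.

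All 5 genes of regulatory T cells had a KO mean below the mean of WT and Het pooled. Their pooled log2 fold changes were below 0, as were 18 of the 22 lymphocyte genes tested. Icos turned to 0.04 without WT568. Against Het alone Tigit was higher in KO, with a log2 fold change of 0.59. None of the 5 was called. Foxp3, the transcription factor that defines these cells, measured 0 and 1.77 CPM in the WT tumours, 0.849 and 0.546 CPM in the Het tumours, and 0.545, 0.106, 0.263 and 0.0514 CPM in the KO tumours. WT568 was highest, WT438 had no counts, and the Het tumours were level with KO437 or above it. The fit gave a log2 fold change of -1.68 ± 1.03 (SE), 95% interval -3.95 to 0.60 and adjusted p = 0.999, and -0.91 without WT568. The gene overlaps Ccdc22 and Flicr in the table. Il2ra, the high-affinity chain of the interleukin 2 receptor, measured 0.675 and 3.44 CPM in the WT tumours, 4.25 and 1.69 CPM in the Het tumours, and 1.47, 1.38, 0.789 and 0.103 CPM in the KO tumours. WT568 and both Het tumours stood above all KO tumours, but WT438 lay below 3 of the 4, with a log2 fold change of -1.42 ± 0.72 (SE), 95% interval -3.01 to 0.17 and adjusted p = 0.999. Ctla4, the inhibitory partner of Cd28 for shared ligands, measured 0.754 and 1.83 CPM in the WT tumours, 0.799 and 0.546 CPM in the Het tumours, and 0.873, 0.265, 0.894 and 0 CPM in the KO tumours. It lies with Cd28 and Icos on chromosome 1, between 60716800 and 61000320, and was absent from KO543 only. Its fit gave a log2 fold change of -0.94 ± 0.82 (SE), 95% interval -2.74 to 0.87 and adjusted p = 0.999. Without WT568 this was -0.47 and without KO543 -0.52. Icos, an inducible costimulatory receptor, kept within 0.556 to 1.41 CPM over all tumours. Tigit, an inhibitory receptor shared by regulatory T cells and NK cells, ranged from 0.582 CPM in KO445 to 2.14 CPM in WT438.

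Of the 5 cytotoxic effector genes, 2 had enough counts for the pooled fit. Gzmb, which encodes granzyme B, measured 0.198 and 2.09 CPM in the WT tumours, 1.45 and 1.26 CPM in the Het tumours, and 1.25, 1.8, 0.421 and 0.669 CPM in the KO tumours. WT438 was lowest and WT568 highest, with all KO tumours between them. The fit gave a log2 fold change of -0.26 ± 0.66 (SE), 95% interval -1.72 to 1.21 and adjusted p = 0.999, and the sign turned without WT568 (0.11). Without KO445 it was -0.66. Nkg7, a membrane protein of cytotoxic granules, measured 0.714 and 2.4 CPM in the WT tumours, 0.899 and 1.31 CPM in the Het tumours, and 1.31, 0.318, 0.579 and 0.412 CPM in the KO tumours. WT568 was above the rest, and KO437 reached the Het tumours, with a log2 fold change of -1.01 ± 0.58 (SE), 95% interval -2.28 to 0.27 and adjusted p = 0.999. Without WT568 this was -0.57 and without KO437 -1.59. Prf1, which encodes perforin, measured 0 and 1.1 CPM in the WT tumours, 0.25 and 0.437 CPM in the Het tumours, and 0.273, 0.159, 0 and 0.566 CPM in the KO tumours. It was at 0 in WT438 and KO479. Gzma, granzyme A, ranged from 0 in KO543 to 0.476 CPM in WT438. Ifng, which encodes interferon gamma, was at 0 counts in 4 tumours, WT438, both Het tumours and KO479, and its highest value was 0.417 CPM in WT568. With both Het tumours at 0, KO against Het has no fold change for Ifng.

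Among the NK receptors and regulators, Il2rb was the most abundant per length, at a median of 0.99 FPKM. It encodes the shared beta chain of the interleukin 2 and 15 receptors and measured 3.14 and 9.8 CPM in the WT tumours, 4.7 and 4.26 CPM in the Het tumours, and 4.47, 2.59, 3.94 and 4.27 CPM in the KO tumours. WT568 was at more than 2 times any other tumour, and the remaining 7 spanned 2.59 to 4.7 CPM, with a log2 fold change of -0.51 ± 0.37 (SE), 95% interval -1.33 to 0.31 and adjusted p = 0.999. Without WT568 this was -0.08. Klrk1, the activating receptor NKG2D, measured 2.02 and 3.55 CPM in the WT tumours, 1.5 and 1.64 CPM in the Het tumours, and 1.15, 0.529, 1.95 and 0.206 CPM in the KO tumours. KO543 was lowest and WT568 highest, and KO479 was level with WT438, with a log2 fold change of -1.18 ± 0.61 (SE), 95% interval -2.52 to 0.17 and adjusted p = 0.999. Without KO479 this was -1.79. Ncr1, the receptor NKp46 that defines mouse NK cells, had 0 counts in WT438, Het569 and KO543 and at most 0.156 CPM, in WT568. Eomes and Tbx21 encode T-box factors of NK cells and effector T cells. Eomes measured 0.159 and 1.1 CPM in the WT tumours, 0.2 and 0.273 CPM in the Het tumours, and 0.327, 0, 0.368 and 1.13 CPM in the KO tumours. WT568 and KO543 were high and the other 6 low. Tbx21 measured 0 and 0.261 CPM in the WT tumours, 0.949 and 0.983 CPM in the Het tumours, and 0.109, 0, 0.21 and 0 CPM in the KO tumours. Both Het tumours stood above all the others, and KO against Het gave a log2 fold change of -3.50 ± 1.25 (SE), 95% interval -6.30 to -0.71 and adjusted p = 1.

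B cells were represented by Ms4a1, which encodes CD20. It had 0 and 1 counts in the WT tumours, 0 and 1 in the Het tumours, and 2, 2, 1 and 1 in the KO tumours. A difference between groups was not detectable at that depth.

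**Figure D3:**
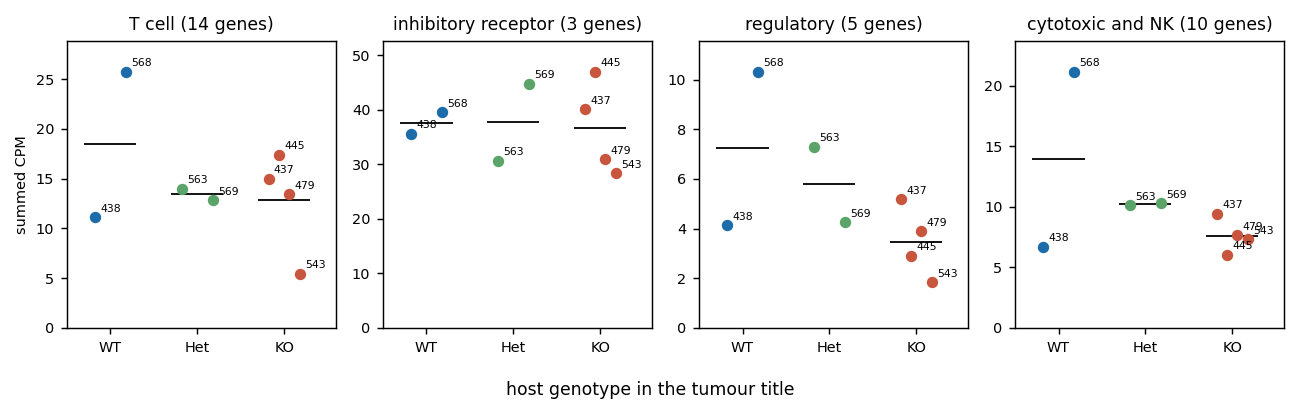
Summed CPM of 4 groups of genes (panels) in each tumour (points, labelled by title number) by host genotype, with the group mean as a bar. WT568 is highest for T cell, regulatory, and cytotoxic and NK genes, at 25.8, 10.3 and 21.2 CPM, while WT438 lies at 11.2, 4.13 and 6.71 CPM, inside the KO range each time.

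By sum, the 14 T cell genes gave a KO mean of 12.8 ± 5.18 CPM (SD, n = 4) and a WT and Het mean of 15.9 ± 6.65 CPM (SD, n = 4). The 5 regulatory genes gave 3.46 ± 1.42 CPM in KO and 6.5 ± 2.94 CPM in WT and Het, and the 10 cytotoxic and NK genes 7.61 ± 1.4 CPM and 12.1 ± 6.28 CPM. WT and Het overlapped KO in each of these groups, for the cytotoxic and NK genes through WT438 alone. The inhibitory receptors, dominated by Havcr2, gave 36.6 ± 8.57 CPM and 37.7 ± 5.97 CPM. Sums over 4 pan-leukocyte markers (such as Ptprc, Coro1a and Cd53) ran from 434 CPM in KO543 to 634 CPM in WT568, but not every marker shared this order. Coro1a did, at 52.6 CPM in KO543 and 142 CPM in WT568. Cd53 was highest in KO543 at 207 CPM and lowest in WT568 at 82.3 CPM, and Ptprc was highest in KO445 at 72.1 CPM. The sum over 8 fibroblast markers (such as Col1a1 and Pdgfrb) was 8595 to 9263 CPM in WT, 10610 to 10618 CPM in Het and 11480 to 13986 CPM in KO. These ranges did not overlap, and how often sums of other lists separate in this way was not tested. Col1a1 by itself did overlap, with 4479 CPM in KO479 and 4562 CPM in Het569. Pdgfrb by itself did not, at 432 to 746 CPM in KO and 328 to 391 CPM in WT and Het. Every KO tumour was above every WT and Het tumour for 1.11% of the genes with any count. Of these 8 markers, 6 had a log2 fold change above 0 and 2 below, and 0 was called. Their part in the lymphocyte levels was not tested.

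KO with WT compares tumours of mice labelled knock-out with those of mice labelled wild-type. Of 16287 genes it called 0 (0%), and 648 reached an unadjusted p under 0.05 (3.98%), while DESeq2 called 5 and limma 1. Of 29 lymphocyte genes tested, 0 was called and 2 had an unadjusted p under 0.05, Cd3e and Cd3g (6.9%). Below 0 lay 26 of the 29, with a median of -0.75 against -0.01 over all genes, and the direction turned without WT568. The median was then 0.27, against 0.08 over all genes, with 12 below and 17 above 0. Without WT438 it was -1.24, against 0.02 over all genes, with 28 of 29 below 0. Each of these fits leaves a lone WT tumour. Without WT568 this is WT438, which stood apart from the rest in genes detected, so the fits do not show which WT tumour is typical. With both WT438 and KO543 left out, which leaves WT568 as the lone WT tumour, the median was -1.20. WT was above KO in mean for 29 of 33 genes, yet WT438 alone exceeded the KO median for only 13.

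**Figure D4:**
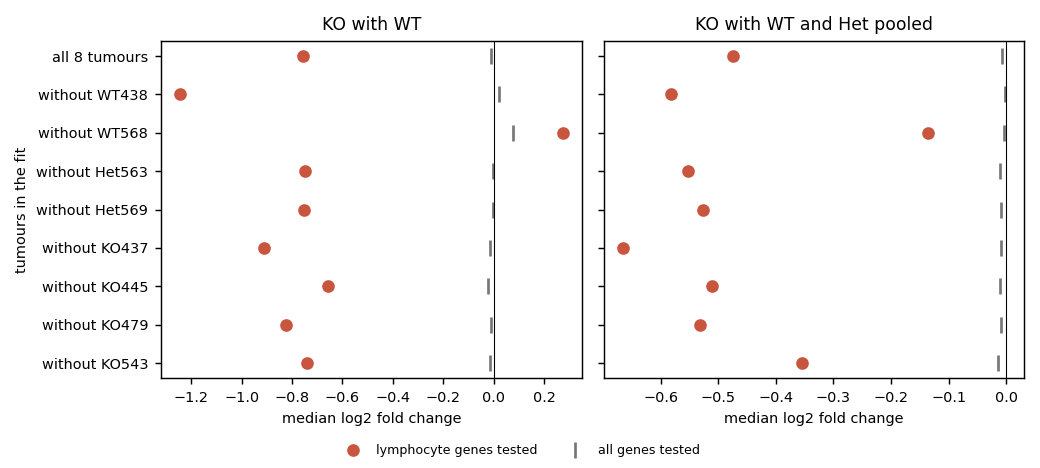
Median log2 fold change of the lymphocyte genes tested (points) and of all genes tested (ticks) with all 8 tumours and with each left out in turn (rows), for KO with WT (left) and KO with WT and Het pooled (right). Leaving out WT568 turns the left median from -0.75 to 0.27 and brings the right one from -0.47 to -0.14. On the left, leaving out either WT tumour leaves a lone WT tumour in the fit.

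KO with Het, which compares mice labelled knock-out with mice labelled heterozygous, called 0 of 16287 (0%), whereas DESeq2 called 3 and limma 0. Below an unadjusted p of 0.05 lay 278 genes (1.71%). Of 29 lymphocyte genes 0 was called, and 1, Tbx21, had an unadjusted p under 0.05 (3.45%). The median was -0.23, with 21 of 29 below 0, and -0.03 without KO543, with 14 below and 13 above 0. It was -0.49 without KO437 and -0.04 without both WT438 and KO543. Het with WT called 0 of 16287 (0%), whereas DESeq2 called 1 and limma 0. Below an unadjusted p of 0.05 lay 314 genes (1.93%). Of 29 lymphocyte genes 0 was called, and 1, Tigit, had an unadjusted p under 0.05 (3.45%). The median was -0.41, with 24 of 29 below 0, and 0.54 without WT568, with 10 below and 19 above 0. It was -0.98 without WT438, and -0.98 without both WT438 and KO543. Leaving out WT568 or WT438 leaves a lone WT tumour in each case. KO with WT and Het with WT share the WT tumours, so their like directions are not separate observations.

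Ratios within a tumour compare the make-up of its lymphocyte RNA, apart from its amount, in FPKM. Most of them rest on Cd3e as the only T cell receptor gene. Its counts were 14 and 47 (WT), 9 and 6 (Het), and 7, 6, 14 and 3 (KO). Counting error is therefore large in these ratios, most of all for KO543 with 3 counts. Cd3e relative to Ptprc, a measure of T cells among leukocytes, was 0.0676 and 0.177 in the WT tumours, 0.0304 and 0.0326 in the Het tumours, and 0.0385, 0.0198, 0.0775 and 0.0178 in the KO tumours. Only WT568 exceeded 0.1, and the KO minus WT and Het difference was -0.8 on the log2 scale (exact permutation p = 0.314, adjusted 0.6). Without WT568 it was -0.29. Gzmb relative to Cd3e was 1.01 and 2.42 in the WT tumours, 9.16 and 10.9 in the Het tumours, and 9.34, 16.1, 1.62 and 12.3 in the KO tumours. It was lowest in WT438 and KO479 and highest in KO445, and the difference was 0.82 (exact permutation p = 0.429, adjusted 0.6). It ran from 0.19 without WT438 to 1.5 without KO479. Pdcd1 relative to Cd3e was 0.755 and 2.74 in the WT tumours, 6.81 and 7.4 in the Het tumours, and 2.42, 4.58, 0.453 and 6.34 in the KO tumours, with a difference of -0.47 (exact permutation p = 0.6, adjusted 0.6). Without KO479, the tumour with the lowest ratio, it was 0.26, and without WT438 -1.14. These 3 two-sided tests over 70 arrangements can give no p under 0.0286. A further 5 ratios include a tumour at 0 and are values only: Cd8a to Cd4 reached 0.246, Foxp3 to Cd3e 1.93, Prf1 to Cd3e 5.79, Ncr1 to Cd3e 0.883 and Ms4a1 to Cd3e 0.22.

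Other genes of lymphocytes, listed by pathway, were called 0 times in all 4 comparisons. Unless stated otherwise, the following counts are for KO against WT and Het, where adjusted p was 0.999 throughout. Of 3 constant regions of the T cell receptor tested, 2 were below 0, 1 of them at only -0.02, and 1 was above. Summed over the 4 constant regions listed, KO had a mean of 4.47 ± 2.45 CPM (SD) and WT and Het 4.04 ± 1.21 CPM. KO543 had the highest sum, 7.97 CPM, against 2.38 to 4.20 CPM in the other KO tumours. Trbc1 had a log2 fold change of 1.09 and Trbc2, the other beta constant region, -0.74. Trbc1 stood at 3.76 CPM in KO543 and at 0.476 to 0.654 CPM in the other KO tumours, and its fold change was -0.14 without KO543. Of 12 other signalling genes, 5 were below 0 and 7 above, with Gata3, a factor of helper T cells, at 0.8 and the phosphatase gene Ptpn22 at -0.46. Gata3 was highest in KO543, at 13.9 CPM against 3.58 to 9.95 CPM elsewhere, and its fold change was 0.37 without KO543. Which cells it came from was not tested. Of 4 other NK genes, 3 were below 0, with the CD94 gene Klrd1 at -1.69 and Klra4, of a multigene family whose members can share reads, at -0.24. Without WT568 Klrd1 was at -0.87, and without WT438 Klra4 was at 0.12. Klra4 ran from 28.7 to 87.6 CPM and was highest in WT438, where Ncr1 had 0 counts. Which cells Klra4 came from was not tested. Of 7 other regulatory T cell genes, 2 were below 0 and 5 above, with Lrrc32, which displays latent TGF-beta on these and other cells, at 0.39 and the interleukin gene Il10 at 1.59, or 0.51 without KO543. Of 7 other B cell genes, 5 were below 0, with the inhibitory receptor Cd22 at 0.61 and the B cell receptor chain Cd79b at -0.76. Without KO445 Cd22 was at 0.30, and without KO543 Cd79b was at -0.47. The direction differed between the comparison groups. Against WT alone, 6 of 8 of these B cell genes were above 0, with a median of 0.47. Against Het alone, 7 of 8 were below 0, with a median of -0.84. Their sum was 149 CPM in Het563 and 14.8 to 85.9 CPM in the other tumours. Of 8 genes in the chemokine receptor list, 7 were below 0, with the monocyte and T cell receptor Ccr2 at -0.51. Of 9 lymphocyte-attracting chemokines, 6 were below 0, with the interferon-induced Cxcl10 at -0.95 and Ccl17 at -0.35. Without KO445 Cxcl10 was at -1.70 and without KO543 at -0.60, and without Het569 Ccl17 was at 0.01.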

How the data were processed

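Whole-number counts per gene and FPKM were deposited by the authors for 8 tumours, 1 table each. Column names match the tumour titles, and 0 columns of per-sample values were left unmapped. Aligner, counting tool, strandedness and build were not given in the sources used here, so genes that overlap others are uncertain. The FPKM deposited by the authors are scaled by an implied library size within 99.97% to 101.7% of the TMM size. The 33 genes, the other lists and the tests were chosen with earlier results of these data known.

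Genes passing filterByExpr (minimum count 10) were fitted with edgeR 4.0.16 (R 4.3.3), TMM factors, the quasi-likelihood test, two-sided, with 1 coefficient per genotype over all 8 tumours (16287 genes) or 2 groups for KO with WT and Het pooled (15205 genes). P-values were adjusted over all genes tested by Benjamini-Hochberg, with a threshold of 0.05. Standard errors and 95% intervals of log2 fold changes were taken from the size of the fold change and its test statistic. CPM use TMM-scaled sizes. A 0 allows 3 counts, 0.119 to 0.164 CPM by tumour. Ratios of FPKM (0.01 added to both) were compared by exact permutation.

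Genes named are all 33, Amhr2, Ptprc, up to 3 defining markers where a marker sum is given, and of each pathway list up to 4 called genes or, with none called, the 2 with the smallest p in the pooled comparison. One of these genes is not reported here. Epcam and the genes in the other observations were picked with their values in view. Alternatives were RLE factors, no filter, DESeq2 1.42.0, limma 3.58.1 on log2(FPKM + 1) for genes at an FPKM of 1 in 2 tumours, the compared groups only, a 3-group fit for the pooled comparison, title numbers under or over 500 as a covariate, other FPKM pseudocounts, each tumour left out, and, chosen after seeing the data, WT438 and KO543 both left out. The fits were tested on simulated data, with changed genes drawn from all genes tested and not from the lymphocyte genes. Of 100 log2 changes of 1, 43 were recovered in the pooled comparison, 19 in KO with WT, 18 in KO with Het and 7 in Het with WT. Of 100 log2 changes of 2, 76, 63, 69 and 65 were recovered in that order. Many real changes could thus go uncalled. No lymphocyte sequence is printed, and the Met5a cell libraries of the series were not used.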

Additional observations from a re-analysis of the deposited data

Results flagged for a closer look

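For each of the 33 genes, the 4 KO tumours and the 4 WT and Het tumours were each searched for a value separated from the other 3 by most of the range. With normally distributed values chance gives this in about 1 of 20 such groups. That rate need not hold for genes of few counts. Of 66 groups, 5 held one. WT568 was high in 3: Cd3e at 2.45 CPM, Ifng at 0.417 CPM with 0 in the other WT and Het tumours, and Eomes at 1.1 CPM. WT438 was high for Cd3g at 1.75 CPM. KO543 was low for Cd6 at 0.103 CPM.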

How the results depend on the processing

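No lymphocyte gene was called in any of the 4 comparisons under any of the settings tried. Limma could test 7 of the 33, at the FPKM minimum of 1. The number of genes called in the whole table was 0 and moved as follows. With no filter on low counts edgeR called 276 in KO with WT, 154 in KO with Het and 63 in Het with WT. DESeq2 called 5, 3 and 1 in these and 1 in KO with WT and Het pooled, and limma called 1 in KO with WT. With each tumour left out in turn the count ranged from 0 to 2 in KO with WT and from 0 to 2 in Het with WT, 2 being without WT568, which leaves WT438 as a lone WT tumour assumed to vary like the other groups. The cause of these moves was not tested. Of the 22 lymphocyte fold changes in KO with WT and Het pooled, 15 kept their sign throughout and 7 did not, none of them called. Leaving out single tumours, their log2 fold changes ranged from -0.28 to 0.29 for Cd3d, -0.35 to 0.94 for Cd4, -0.43 to 0.016 for Cd2, -0.16 to 0.85 for Cd6, -0.22 to 0.050 for Havcr2, -0.48 to 0.038 for Icos and -0.66 to 0.11 for Gzmb. With title numbers under or over 500 as a covariate they were -0.12 for Cd6 and 0.47 for Gzmb, and among genes that kept their sign -0.21 for Cd8a, -0.56 for Foxp3, -0.16 for Il2rb, -1.0 for Lck, -1.77 for Ctla4 and -1.83 for Klrk1. Without both WT438 and KO543 they were -0.035 for Cd3d and 0.056 for Havcr2. The Pdcd1 to Cd3e log2 difference ranged from -1.14 to 0.26. Depth limits the genes of few counts most: 11 of the 33 had a mean count under 10, and 12 were at 0 in at least 1 tumour. No paired analysis was possible because the tumour groups share no title numbers.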

Other observations

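KO543, which was lowest for 12 of the 33 lymphocyte genes, was highest for several others, picked with their values in view. The beta constant region Trbc1 stood at 3.76 CPM, 73 counts, against 0.317 to 0.939 CPM in the other 7 tumours. The delta constant region Trdc of gamma-delta T cells stood at 1.8 CPM against at most 0.601 CPM elsewhere, the NKG2A gene Klrc1 at 1.59 CPM against at most 0.421 CPM elsewhere, and Il10 at 11.9 CPM against at most 3.76 CPM. Blk, a kinase of B cells and some gamma-delta T cells, stood at 1.13 CPM against at most 0.368 CPM. KO543 was at 0 for Cd8b1, Cd27, Ctla4, Gzma, Ncr1 and Tbx21. The Trbc1 and Trbc2 regions are near-identical copies, so how their reads were divided is uncertain.

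Antibody genes had far more counts than the B cell gene Ms4a1. Ighm, the heavy chain of IgM, was highest in Het563 at 80.6 CPM and lowest in WT438 at 5.4 CPM. Igkc, the kappa light chain, was likewise highest in Het563 at 45.1 CPM and lowest in WT438 at 1.55 CPM. Jchain, which joins IgM units in plasma cells, was highest in Het563 at 13.6 CPM, with KO479 next at 7.84 CPM. Of genes of lymph node stroma, Glycam1 and Ccl19, the latter on both its identifiers, were at 0 in all 8 tumours. The lymphocyte-attracting chemokine gene Ccl21a, which has near-identical copies, had on 1 identifier 33 counts (1.72 CPM) in WT568, 8 and 6 in the Het tumours, 2 in KO437 and 0 in the other 4. Its other identifier had 1 count in all. Madcam1, an adhesion gene of mucosal vessels, had 0 to 7 counts.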
